A study of Danio rerio with 16 samples.

Results

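Whole zebrafish embryos were compared 4 hours after an injection into the caudal aorta (4 hours post injection, hpi), when they had received either human recombinant insulin or phosphate-buffered saline (PBS). The 8 libraries were taken by their titles, 4 labelled insulin and 4 labelled PBS at 4 hpi, out of 16 in the series; the other 8 are the same injections at 0.5 hpi. All 16 libraries share the ABTL genetic background, the stage of 4 days post fertilization at injection, an injected volume of 1 nl, and total RNA from a pool of 10 embryos per library. The PBS embryos therefore carry the needle wound and the fluid load as well. The amount of insulin injected is not given in the sources used here, an uninjected group was not analysed here, and the labels do not say whether pools of a group came from separate clutches. The p-values measure the spread between these pooled libraries.

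The series title concerns high insulin, insulin resistance and immune suppression, and names ptpn6, the gene of the tyrosine phosphatase SHP-1. As background, the insulin receptor signals through insulin receptor substrates, PI3-kinase and AKT. AKT keeps FoxO transcription factors out of the nucleus, so that FoxO target genes such as pck1, fbxo32 and igfbp1 are transcribed less while insulin acts. In the liver the same pathway raises glucokinase and lowers gluconeogenesis, and through mTORC1 it promotes translation. Sustained insulin lowers the response of cells to it by feedback at the receptor and its substrates, and tyrosine phosphatases such as SHP-1 are among the proteins that act against it.

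The counts assigned to genes ranged from 7212883 to 9595280 per PBS library and from 6535173 to 9177091 per insulin library. Muscle genes held 88700.0 to 94960.0 CPM (read counts scaled to a common library total) of PBS libraries and liver genes 18920.0 to 21380.0, so the defining genes of both tissues were present. On the first principal component of the 8 libraries, with 52.8% of the variance, the PBS libraries lay between 32.9 and 43.4 and the insulin libraries between -58.3 and -26.2. The second component, with 18.57%, placed insulin replicate 1 at 50.6 and the other insulin libraries between -26.4 and -19. Insulin replicate 1 differed from each other insulin library beyond counting error at 25.5% to 35.7% of genes, against 3.29% to 9.66% among the other insulin libraries and 3.67% to 13.2% among the PBS libraries. Its level of wdr90 was 4.96 CPM, against 41.4 to 94.9 in the other insulin libraries. Results that rest on it are given with and without it. The headers name sequencing lane 5 for PBS replicates 2 to 4 and insulin replicates 1 and 3, lane 7 for insulin replicate 4 and none for the first PBS and the second insulin library.

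The late response was broad. Unless a time is named, rose and fell compare insulin with PBS at 4 hpi and are not changes over time. Likewise, from and to give the PBS and the insulin mean. Of 21650 genes tested, 6193 (28.6%) passed an adjusted p of 0.05, 3035 of them higher after insulin (14% of genes tested) and 3158 lower (14.6%). With library totals in place of TMM scaling factors, 38.8% of called genes were higher instead of 49.0%, and the median log2 change of all genes moved from 0.015 to -0.053. Large changes were mostly falls: 876 genes fell and 331 rose by over 2-fold, and 117 fell and 15 rose by over 4-fold. The median log2 change was 0.57 over the genes called higher and -0.73 over those called lower. For 7261 genes (33.5% of those tested) the 4 insulin libraries lay wholly above or wholly below the 4 PBS libraries, 3527 above and 3734 below. The response was present in every insulin library: relative to the PBS mean, the genes called higher had a median log2 change of 0.73, 0.48, 0.46 and 0.56 in replicates 1 to 4, and those called lower -0.80, -0.71, -0.62 and -0.69, a description, since these libraries chose the genes. Within the 5 libraries of lane 5, 2952 genes passed, 1242 higher and 1710 lower.

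**Figure D1:**
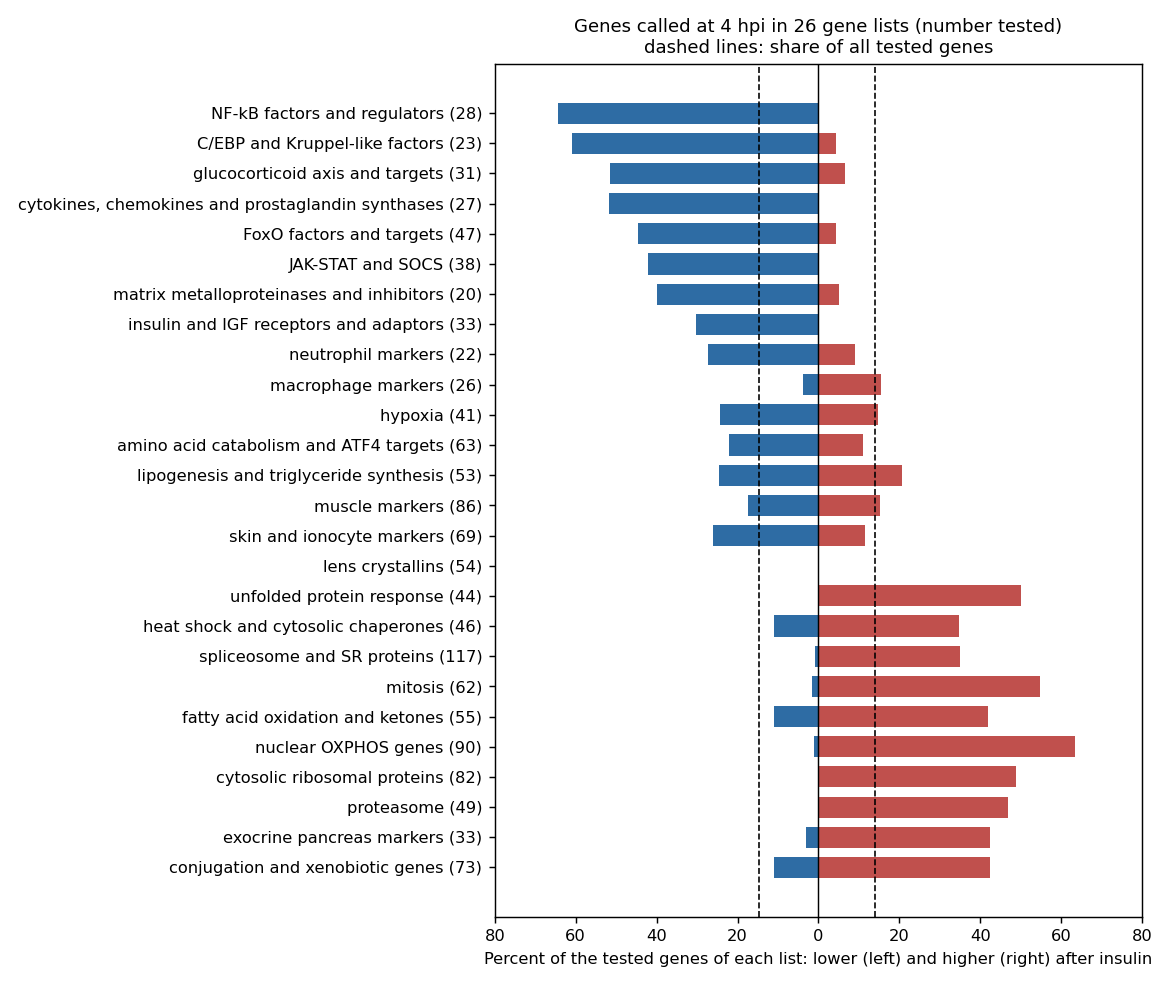
Bars give the percent of tested genes of each of 26 gene lists that were called lower (blue, left) or higher (red, right) after insulin at 4 hpi, with the number tested in brackets; dashed lines are the shares over all genes tested, 14.6% lower and 14% higher. Lists of inflammation, of the glucocorticoid axis and of FoxO targets lie to the left and lists of protein folding, splicing, mitosis and respiration to the right, while the lens crystallin list holds no called gene.

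The phosphatase gene of the title was higher after insulin. A pair of gene IDs carries the symbol ptpn6, both on chromosome 16 of the Zv9 build. For the first (ENSDARG00000013916) the PBS libraries held 1.86, 1.43, 1.98 and 1.43 CPM and the insulin libraries 4.29, 5.63, 5.46 and 4.33 CPM, in the order of replicates 1 to 4. For the second (ENSDARG00000089043) the values were 1.33, 0.815, 0.990 and 1.78 CPM after PBS and 2.95, 1.95, 3.33 and 2.47 CPM after insulin. The groups did not overlap for either ID. The log2 changes were 1.56 (SE 0.31, adjusted p = 0.00101) and 1.12 (SE 0.30, adjusted p = 0.00975), and the exact two-sided permutation test over the 8 libraries gave p = 0.0286 for each, the smallest that 4 against 4 allows. These are low levels, resting on 12 to 18 reads per PBS library and 28 to 52 per insulin library for the first ID. The insulin effect on the first ID differed between 4 and 0.5 hpi (log2 difference 1.73, adjusted p = 0.0155), and for the second the difference missed the threshold (1.12, adjusted p = 0.0887). Levels at 0.5 hpi after PBS and insulin were 2.998 and 2.7 CPM for the first ID and 2.493 and 2.509 CPM for the second. Both IDs thus had PBS at 4 hpi as their low group, at 1.674 and 1.23 CPM. Insulin at 4 hpi, at 4.928 CPM, lay above both early means of the first ID. Early PBS replicate 1 of that ID, at 4.51 CPM, exceeded insulin replicates 1 and 4 at 4 hpi. For the second ID, insulin at 4 hpi, at 2.675 CPM, lay near the early means. How reads that fit both IDs were counted is not given in the sources used here.

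Several other genes of proteins that act against insulin signalling moved the other way. Of 33 tested genes of this kind, 4 rose and 7 fell, with a median log2 change of -0.12 against 0.015 over all genes. The share called was 33.3%, near the 28.6% over all genes tested. The list median turned positive in the lane 5 libraries alone (0.03) and without PBS replicate 1 (0.01). The 4 that rose are both ptpn6 IDs, the phosphatase gene ptpn2b (log2 change 0.47) and inpp5d, the lipid phosphatase SHIP1 of blood cells (0.75). ptpn1, the gene of the phosphatase PTP1B that acts on the insulin receptor, held 84.7, 91.5, 76.9 and 73.5 CPM after PBS and 57.1, 54.0, 54.2 and 50.0 CPM after insulin. All insulin libraries lay below all PBS libraries (adjusted p = 0.000151, log2 ratio -0.60 ± 0.10 SE). The largest fall of the list was in socs3a, which encodes a suppressor of cytokine signalling that also binds insulin receptor substrates, with 129, 127, 68.2 and 56.8 CPM after PBS and 18.9, 28.7, 21.1 and 26.1 CPM after insulin (adjusted p = 0.000625, log2 ratio -2.0 ± 0.33 SE). Its PBS libraries fell into a high and a low pair, and all 4 exceeded the insulin libraries. Some genes of the tribbles pseudokinases, which bind AKT or C/EBP factors, fell as well: trib1 fell from 8.67 ± 1.05 to 2.55 ± 0.447 CPM, and trib3 fell from 76.3 ± 11.3 to 33.6 ± 1.38 CPM.

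Some genes of the receptors and adaptors were lower. Of 33 insulin and IGF receptor and adaptor genes tested, 0 were higher (3 by edgeR at an unadjusted p under 0.05, 1 by DESeq2, 0 by limma voom) and 10 lower, with a median log2 change of -0.16. The share called was 30.3%, near the 28.6% over all genes tested (14% higher and 14.6% lower). Leaving out insulin replicate 1, 2 or 4 gave 2, 1 and 1 higher. The summed level of the list went the other way, at 2194 to 2344 CPM after PBS and 2351 to 2442 CPM after insulin, without overlap. irs2, an insulin receptor substrate of the liver and other tissues, held 41.4, 54.3, 45.6 and 48.3 CPM after PBS and 24.0, 27.1, 29.3 and 25.6 CPM after insulin, without overlap (adjusted p = 0.000357, log2 ratio -0.84 ± 0.15 SE). One of the insulin receptor genes, insrb, fell from 61.2 ± 5.62 to 38.6 ± 4.88 CPM. Both IGF-1 receptor genes fell: igf1ra fell from 52.4 ± 4.94 to 27.0 ± 6.73 CPM and igf1rb fell from 21.6 ± 2.25 to 11.9 ± 1.47 CPM. igfbp1a, whose protein binds IGFs and is a known FoxO target, fell from 60.0 ± 13.5 to 26.7 ± 3.88 CPM. Further down, rps6kb1a, the S6 kinase gene under mTORC1, fell from 47.5 ± 6.62 to 25.4 ± 4.59 CPM, while eif4ebp1, which encodes the translation repressor that mTORC1 switches off, rose from 60.4 ± 3.30 to 86.4 ± 2.27 CPM. The PI3K, AKT and mTOR list had 5 higher and 6 lower of 41, a share called of 26.8%, near the 28.6% over all genes tested. The number higher was 1 without PBS replicate 1, 2 without PBS replicate 2 or 3 or insulin replicate 2, and 3 without insulin replicate 3 or 4, and library totals gave 2 higher and 7 lower.

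FoxO factors and targets were more often lower than higher. Of 47 tested, 21 were lower and 2 higher (48.9% called, against 28.6% over all genes tested), with a median log2 change of -0.30. The summed level was 4584 to 5346 CPM after PBS and 2820.0 to 3218 CPM after insulin. fbxo32, the muscle ubiquitin ligase atrogin-1, held 11.4, 13.1, 10.8 and 14.3 CPM after PBS and 3.75, 3.79, 2.66 and 3.24 CPM after insulin (adjusted p = 1.54e-05, log2 ratio -1.87 ± 0.23 SE). foxo1a itself held 31.5, 34.1, 29.8 and 24.4 CPM after PBS and between 9.92 and 14.8 CPM, with a mean of 12.1 ± 2.38, after insulin (adjusted p = 1.81e-05, log2 ratio -1.31 ± 0.17 SE). Neither gene overlapped between groups. The arrestin-family genes arrdc3a and txnipa, whose proteins restrain uptake of nutrients at the cell surface, fell too: arrdc3a fell from 411 ± 56.5 to 147 ± 7.86 CPM, and txnipa fell from 657 ± 122 to 319.8 ± 6.26 CPM. At 0.5 hpi the levels of txnipa already stood at 692 CPM after PBS and 311 CPM after insulin, whereas fbxo32 stood at 4.78 and 4.37 CPM.

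**Figure D2:**
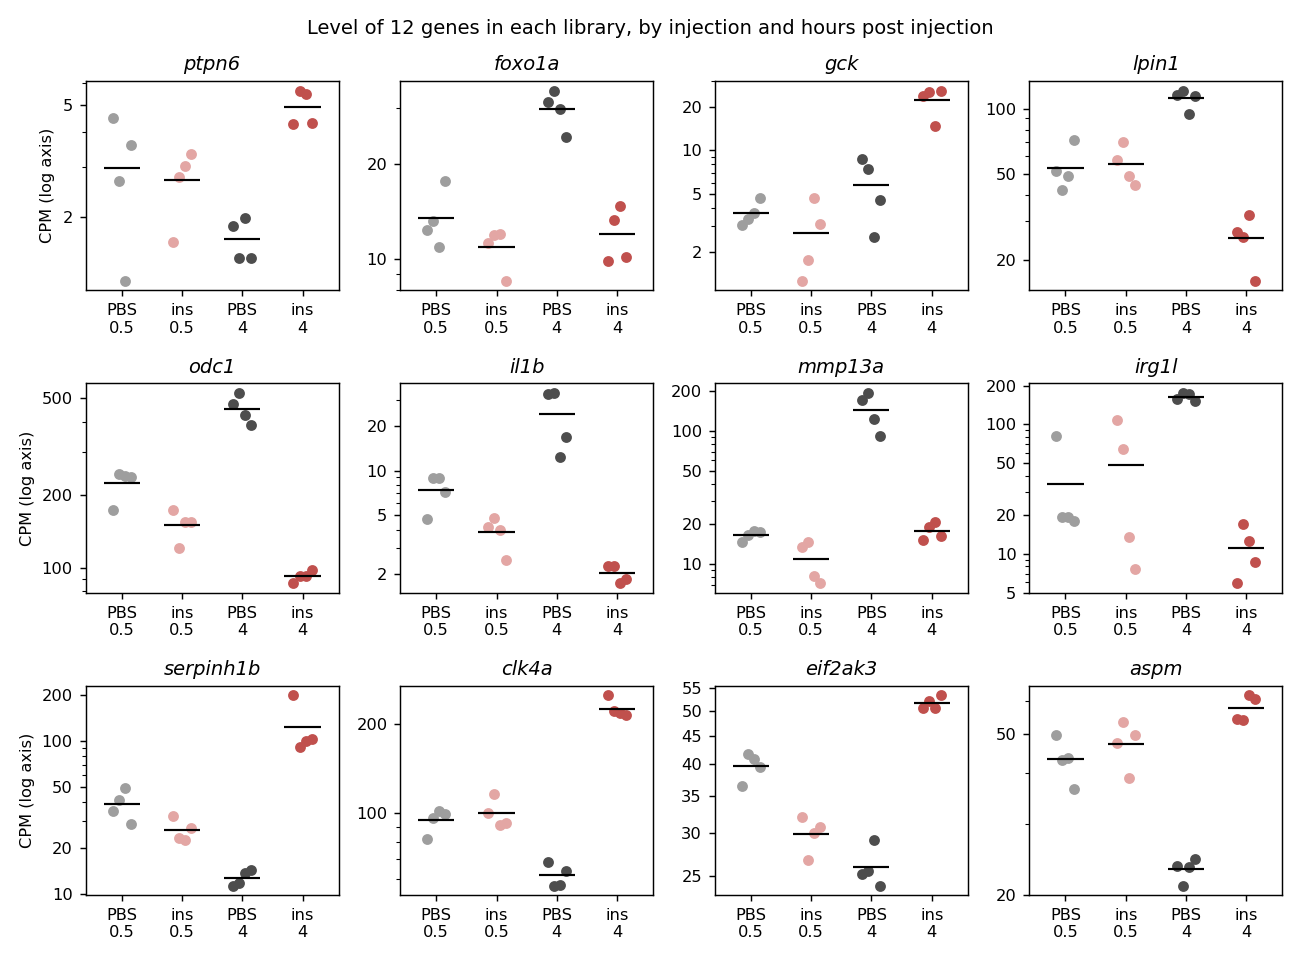
Each point is the level of a gene in 1 library (CPM, log axis) and each line a group mean, for PBS and insulin (ins) at 0.5 and 4 hpi, 4 libraries per group; the ptpn6 panel shows the ID with the smaller adjusted p. In all 12 panels the insulin and PBS libraries at 4 hpi are apart, with foxo1a, lpin1, odc1, il1b, mmp13a and irg1l lower and ptpn6, gck, serpinh1b, clk4a, eif2ak3 and aspm higher after insulin.

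Genes of glucose metabolism changed in both directions. gck, the glucokinase of liver and islet, rose, and pck1, the enzyme that commits carbon to gluconeogenesis, fell. gck held 8.78, 7.44, 2.53 and 4.52 CPM after PBS and 23.9, 25.4, 14.8 and 25.9 CPM after insulin, every insulin library above every PBS library (adjusted p = 0.000411, log2 ratio 1.96 ± 0.33 SE). pck1 held 580.3, 768, 752 and 669 CPM after PBS and 462, 397, 419 and 312 CPM after insulin, again without overlap (adjusted p = 0.000478, log2 ratio -0.80 ± 0.14 SE). Among the genes of bifunctional enzymes that set the fructose bisphosphate signal of glycolysis, pfkfb3 fell from 101 ± 14.8 to 24.5 ± 7.58 CPM, and pfkfb4l fell from 153 ± 23.4 to 65.1 ± 17.6 CPM. ppargc1b, a coactivator of mitochondrial and lipid genes, fell from 129 ± 2.56 to 65.3 ± 8.64 CPM. Over the whole lists, gluconeogenesis had 10 higher and 3 lower of 27, and glycolysis and glucose uptake 8 higher and 6 lower of 50. The shares called were 48.1% and 28.0%, against 28.6% over all genes tested. The numbers higher depended on single libraries: leaving out 1 library at a time left 4 to 9 for gluconeogenesis, 4 of them without insulin replicate 1 and 6 without PBS replicate 1, 2 or 3, and 1 to 9 for glycolysis, 1 of them without PBS replicate 1 and 2 without insulin replicate 1. The number lower in glycolysis was 3 without PBS replicate 1 or 2 or without insulin replicate 1 or 4. The insulin gene ins held 13.4, 15.4, 13.3 and 17.1 CPM after PBS and 22.1, 17.0, 16.2 and 19.0 CPM after insulin and did not pass (adjusted p = 0.0982, log2 ratio 0.33 ± 0.15 SE).

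Lipid genes changed in both directions. Several genes of synthesis fell, although their list was mixed, while genes of fatty acid oxidation were more often called higher than lower. lpin1, the phosphatidate phosphatase of triglyceride synthesis, held 116, 121, 94.6 and 115 CPM after PBS and 26.8, 25.4, 32.1 and 15.9 CPM after insulin (adjusted p = 7.13e-07, log2 ratio -2.15 ± 0.20 SE). srebf1, the transcription factor of fatty acid synthesis, fell from 55.9 ± 5.76 to 21.5 ± 3.32 CPM. Other falls in synthesis were in the elongation gene elovl1a, from 32.2 to 10.4 CPM, the acyl-CoA synthetase gene acsl4l, from 106 to 23.6 CPM, and hsd17b12a, a reductase of fatty acid elongation, from 108 to 33.6 CPM. The last of these had a log2 change of -1.67 (SE 0.12, adjusted p = 2.1e-08). At 0.5 hpi acsl4l stood at 15.8 CPM after PBS and 18.4 CPM after insulin, so PBS at 4 hpi was its high group. The lipogenesis list as a whole had 11 higher and 13 lower of 53 (45.3% called, against 28.6% over all genes tested). Its median was -0.04, so the falls named here do not stand for all of it. The number higher there fell to 7 without insulin replicate 1 or PBS replicate 3 and to 6 without PBS replicate 4.

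Cholesterol handling moved in the same mixed way, with 10 higher and 8 lower of 46, 5 higher without insulin replicate 1. Called genes made up 39.1% of that list, against 28.6% over all genes tested. abca1a, the exporter of cholesterol to lipoproteins, held 385, 446, 383 and 418 CPM after PBS and 89.0, 144, 150.0 and 113 CPM after insulin, without overlap (adjusted p = 5.05e-07, log2 ratio -1.72 ± 0.16 SE). The LDL receptor gene ldlr fell from 75.2 ± 7.43 to 34.1 ± 5.55 CPM. insig1, which holds the sterol sensor in the endoplasmic reticulum, fell from 65.3 ± 7.14 to 35.1 ± 4.39 CPM. In contrast abcg5, a subunit of the sterol exporter of intestine and liver, rose from 3.31 ± 0.276 to 7.41 ± 0.649 CPM, and cyp8b1, a bile acid hydroxylase of the liver, rose from 15.1 ± 2.31 to 40.3 ± 11.5 CPM. In oxidation, 23 of 55 genes were higher and 6 lower (52.7% called), with a median of 0.37. Short-chain steps were among them: hadh rose from 46.6 ± 1.25 to 75.6 ± 14.4 CPM, and acads rose from 21.7 ± 2.0 to 35.6 ± 6.92 CPM. Their regulator pparda, a nuclear receptor for fatty acids, fell from 25.5 ± 1.78 to 15.9 ± 1.53 CPM. The number higher in oxidation was 11 to 14 when any PBS library or insulin replicate 1 was left out, 13 without PBS replicate 1, 14 without replicate 2, 14 without replicate 3, 12 without replicate 4 and 11 without insulin replicate 1.

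Several genes of amino acid and polyamine handling fell, while their list as a whole was mixed. odc1, ornithine decarboxylase, the first enzyme of polyamine synthesis, held 475, 526, 426 and 387 CPM after PBS and 86.3, 92.8, 93.0 and 97.6 CPM after insulin (adjusted p = 7.44e-10, log2 ratio -2.29 ± 0.13 SE). Both groups were tight and far apart. The cationic amino acid transporter gene slc7a3a fell from 216 ± 21.7 to 107 ± 19.5 CPM, and arg2, the mitochondrial arginase that makes ornithine, fell from 122 ± 23.9 to 43.5 ± 1.87 CPM. glula, glutamine synthetase, fell from 787 ± 34.2 to 446 ± 21.6 CPM. slc16a6b, a monocarboxylate carrier whose paralog exports ketone bodies from the liver in zebrafish, fell from 183 ± 5.76 to 47.1 ± 9.35 CPM. Over the list of amino acid catabolism and ATF4 targets, 14 were lower and 7 higher of 63, with a median of 0.02. The share called was 33.3%, against 28.6% over all genes tested.

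Many inflammatory genes were lower after insulin, several of them among the larger falls of the comparison. il1b, the gene of the cytokine interleukin-1 beta, held 33.0, 33.3, 12.4 and 16.8 CPM after PBS and 2.28, 2.27, 1.73 and 1.85 CPM after insulin (adjusted p = 9.58e-07, log2 ratio -3.53 ± 0.33 SE). The PBS libraries again formed a high and a low pair, with the lowest of them still above every insulin library. ptgs2b, a cyclooxygenase of prostaglandin synthesis, held 60.8, 63.6, 38.9 and 35.5 CPM after PBS and 4.96, 5.53, 4.66 and 4.02 CPM after insulin (adjusted p = 4.65e-05, log2 ratio -3.36 ± 0.40 SE). The chemokine gene cxcl-c1c fell from 42.1 ± 22.0 to 4.49 ± 1.94 CPM. tgfb1a, a transforming growth factor beta gene, fell from 21.0 ± 3.27 to 9.35 ± 1.98 CPM. Early levels, at 0.5 hpi after PBS and insulin, were 7.4 and 3.84 CPM for il1b and 28.8 and 15.4 CPM for ptgs2b. For tgfb1a they were 14.6 and 12.3 CPM. That makes PBS at 4 hpi the high group for il1b, ptgs2b and tgfb1a, with the insulin mean at 4 hpi below both early means. Of 27 tested genes of cytokines, chemokines and prostaglandin synthases, 14 were lower and 0 higher (1 by edgeR at an unadjusted p under 0.05, 0 by DESeq2, 0 by limma voom), with a median log2 change of -0.64. Called genes made up 51.9% of that list, against 28.6% over all genes tested.

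The NF-kB and JAK-STAT pathways of inflammation followed. Of 28 NF-kB factors and regulators, 18 were lower and 0 higher (0 by edgeR at an unadjusted p under 0.05, 0 by DESeq2, 0 by limma voom), with a median of -0.72. Of these genes 64.3% were called, against 28.6% over all genes tested. Their summed level was 638 to 820.2 CPM after PBS and 466 to 513 CPM after insulin. nfkbiaa, the inhibitor that NF-kB itself induces, held 82.6, 82.8, 54.7 and 57.0 CPM after PBS and 31.4, 27.5, 20.8 and 21.0 CPM after insulin (adjusted p = 1.38e-05, log2 ratio -1.46 ± 0.18 SE). In the JAK-STAT and SOCS list 16 were lower and 0 higher (2 by edgeR at an unadjusted p under 0.05, 0 by DESeq2, 2 by limma voom) of 38. Here 42.1% were called. irf1b, an interferon-responsive transcription factor, fell from 26.1 ± 12.8 to 7.98 ± 1.22 CPM. Early levels, at 0.5 hpi after PBS and insulin, were 41.75 and 29.0 CPM for nfkbiaa and 6.85 and 8.54 CPM for irf1b. That makes PBS at 4 hpi the high group for both genes. The interferon response list had 2 lower and 0 higher (2 by edgeR at an unadjusted p under 0.05, 0 by DESeq2, 0 by limma voom) of 14. Its called share of 14.3% was below the 28.6% over all genes tested.

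Some matrix protease genes were lower too. mmp13a, a collagenase of myeloid cells and injured epithelium, held 170.1, 192, 123 and 90.9 CPM after PBS and 15.2, 19.1, 20.6 and 16.4 CPM after insulin (adjusted p = 2.23e-07, log2 ratio -3.01 ± 0.23 SE). mmp9, a gelatinase of the same setting, held 219, 233, 168 and 124 CPM after PBS and 20.1, 53.5, 40.2 and 32.1 CPM after insulin (adjusted p = 6.59e-05, log2 ratio -2.34 ± 0.29 SE). The groups were far apart in both. Early levels of mmp9, at 0.5 hpi, were 34.7 CPM after PBS and 21.6 CPM after insulin. That makes PBS at 4 hpi its high group, while the insulin mean at 4 hpi, 36.5 CPM, lay near the early PBS mean. The matrix metalloproteinase list had 8 lower and 1 higher of 20 (45.0% called, against 28.6% over all genes tested). irg1l, an enzyme gene of epidermis related to the itaconate-producing irg1, held 158, 175, 171 and 151 CPM after PBS and 5.90, 16.9, 12.7 and 8.65 CPM after insulin (adjusted p = 0.00409, log2 ratio -3.87 ± 0.81 SE). plek2, which encodes a membrane-binding regulator of the actin cytoskeleton, had the largest fall among the named genes, from 67.0 ± 25.1 to 3.62 ± 1.19 CPM (adjusted p = 6.37e-06, log2 ratio -4.19 ± 0.39 SE). Early levels after PBS and insulin were 34.5 and 48.5 CPM for irg1l and 20.4 and 13.15 CPM for plek2. Early irg1l varied widely, from 7.68 to 107.8 CPM. Both genes thus had PBS at 4 hpi as their high group. A gene of the terminal complement component C7, C7 (2 of 2), fell from 44.9 ± 17.4 to 11.09 ± 3.09 CPM (adjusted p = 0.000205, log2 ratio -2.01 ± 0.30 SE). The complement and coagulation list had 5 lower and 3 higher of 40. Its called share of 20.0% was below the 28.6% over all genes tested.

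Among immune-cell markers, mpx, lyz and mpeg1 did not pass the test in the fit of 16 libraries, while some others did. mpx, the myeloperoxidase that defines zebrafish neutrophils, held 12.9, 9.38, 11.2 and 10.3 CPM after PBS and 19.6, 13.9, 13.1 and 14.4 CPM after insulin, all insulin libraries above all PBS libraries, and did not pass (adjusted p = 0.296, log2 ratio 0.48 ± 0.33 SE). The rise of mpx passed with only the 8 libraries at 4 hpi in the fit (log2 change 0.47, adjusted p = 0.0303) and in the fit with a replicate block (0.47, adjusted p = 0.0462). lyz, the lysozyme gene of neutrophils and some macrophages, held 19.6, 17.7, 21.7 and 19.1 CPM after PBS and 36.3, 21.9, 23.3 and 23.9 CPM after insulin, likewise short of the threshold (adjusted p = 0.341, log2 ratio 0.43 ± 0.33 SE) and past it in that smaller fit (adjusted p = 0.0428). mpeg1, the perforin that defines macrophages, held 5.05, 4.38, 4.51 and 3.57 CPM after PBS and 4.96, 4.44, 5.46 and 4.79 CPM after insulin, and the groups overlapped (adjusted p = 0.673, log2 ratio 0.17 ± 0.27 SE). All of these are measured at or above the PBS level on average. Of 22 neutrophil markers 6 fell and 2 rose, a share called of 36.4% against 28.6% over all genes tested. Those that fell include mmp9 and mmp13a, as well as ncf1, a subunit of the phagocyte oxidase, which fell from 13.1 ± 1.99 to 5.35 ± 0.816 CPM. Early ncf1 stood at 4.9 CPM after PBS and 4.6 CPM after insulin, so PBS at 4 hpi was its high group. The summed level of that list was 769 to 1004 CPM after PBS and 656 to 741 CPM after insulin, and mmp9 and mmp13a carried that difference: in a sum chosen after seeing the data, the other 20 genes reached 554 to 583 CPM after PBS and 608 to 681 CPM after insulin, without overlap. Of 26 macrophage markers 4 rose and 1 fell, a share called of 19.2% against 28.6% over all genes tested. The list median of 0.10 changed sign with a filter of 10 CPM (-0.11), without PBS replicate 4 (-0.02) and in the libraries with no named lane (-0.29). Both ptpn6 IDs are among the risers of that list, and mfap4, a secreted protein gene of zebrafish macrophages, rose from 2.59 ± 0.995 to 5.80 ± 1.66 CPM. In whole embryos, fewer cells of a type and less RNA per cell cannot be told apart. The lymphoid list had 1 called gene of 17 (5.88%).

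**Figure D3:**
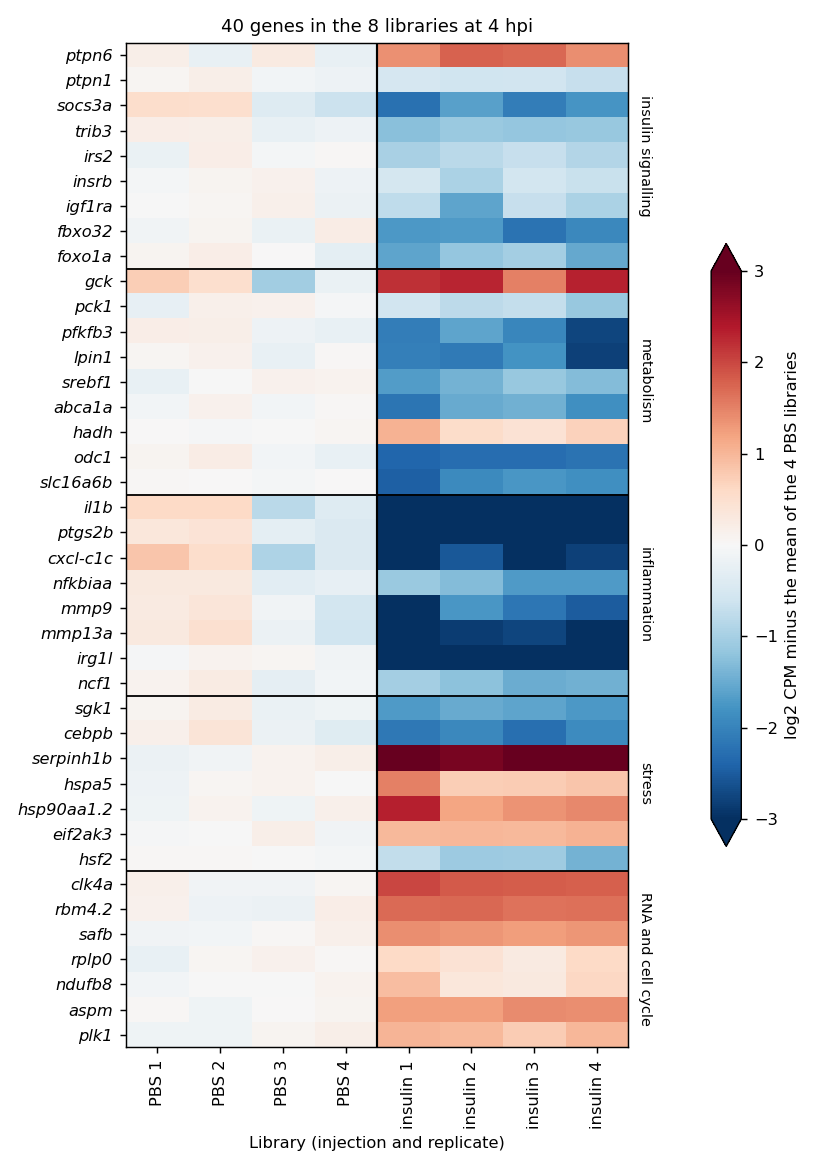
Colour gives log2 CPM minus the mean of the 4 PBS libraries for 40 genes (rows) in the 8 libraries at 4 hpi (columns), with the scale cut at 3 in both directions; ptpn6 is the ID with the smaller adjusted p. The 4 insulin libraries share the direction of every row, and insulin replicate 1 is the reddest of them for hspa5 and hsp90aa1.2.

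Transcription factors of the immediate-early and clock classes were lower along with the inflammatory genes. Of 39 AP-1 and immediate-early genes 27 fell and 2 rose (74.4% called, against 28.6% over all genes tested). Among the falls were atf3, a stress-induced repressor, from 98.1 to 11.6 CPM, and the AP-1 subunit gene fosl1a, from 85.8 to 5.19 CPM. dusp5, an ERK phosphatase that ERK signalling induces, fell from 35.4 ± 3.16 to 7.51 ± 0.940 CPM (adjusted p = 2.23e-07, log2 ratio -2.24 ± 0.20 SE). The C/EBP and Kruppel-like factor list had 14 lower and 1 higher of 23 (65.2% called). Clock repressors fell in 20 of 23 cases (91.3% called) and clock activators and output factors in 14 of 17 (82.4% called). Among the latter, dbpa, a circadian output factor, held 102, 92.8, 79.3 and 81.7 CPM after PBS and 27.5, 40.3, 41.3 and 32.8 CPM after insulin (adjusted p = 2.75e-05, log2 ratio -1.32 ± 0.17 SE). The activator gene clock fell from 43.1 ± 2.43 to 22.6 ± 4.0 CPM, and tefa, a light-responsive output factor, fell from 319 ± 17.7 to 175 ± 11.4 CPM. At 0.5 hpi tefa stood at 146 ± 22.6 CPM after PBS and 249 ± 25.9 CPM after insulin, so the sign of the difference was opposite there, and the change between times was -1.64 (adjusted p = 2.6e-06).

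Targets of the glucocorticoid receptor were lower. As background, cortisol acts in zebrafish as the stress hormone through the receptor gene nr3c1, and raises genes such as fkbp5 and sgk1. Of 31 genes of the axis 16 fell and 2 rose, with a median log2 change of -0.50. Called genes made up 58.1% of the list, against 28.6% over all genes tested. Summed levels were 4084 to 4780.0 CPM after PBS and 2078 to 2570.0 CPM after insulin. sgk1, a kinase of ion transport, held 236, 261, 194 and 201 CPM after PBS and 68.5, 77.6, 73.8 and 66.9 CPM after insulin (adjusted p = 5.27e-06, log2 ratio -1.64 ± 0.18 SE). fkbp5, a cochaperone of the receptor, held 292, 306, 258 and 311 CPM after PBS and 168, 72.8, 129 and 50.7 CPM after insulin (adjusted p = 0.00541, log2 ratio -1.47 ± 0.33 SE). Its insulin libraries varied over 3-fold and still lay below every PBS library. cebpb, a C/EBP factor of the acute phase and adipogenesis, fell from 190.2 ± 43.9 to 45.2 ± 5.51 CPM. The receptor gene nr3c1 held 50.5, 51.6, 50.8 and 50.4 CPM after PBS and 41.4, 58.4, 57.8 and 48.8 CPM after insulin, and the groups overlapped (adjusted p = 0.89, log2 ratio 0.02 ± 0.11 SE).

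Chaperone genes of the endoplasmic reticulum rose. serpinh1b, the collagen chaperone Hsp47, had the largest rise among the named genes, with 11.3, 11.7, 13.6 and 14.4 CPM after PBS and 199, 91.4, 101 and 103 CPM after insulin (adjusted p = 1.8e-07, log2 ratio 3.27 ± 0.24 SE). All insulin libraries were high, and replicate 1 lay apart from the other 3 at the top. hspa5, the main chaperone BiP of the endoplasmic reticulum, held 154, 179, 184 and 169.5 CPM after PBS and 487, 284, 291 and 307 CPM after insulin (adjusted p = 0.000158, log2 ratio 0.99 ± 0.16 SE). eif2ak3, the stress sensor kinase PERK, held 25.3, 25.6, 29.1 and 24.0 CPM after PBS and 50.5, 52.0, 50.6 and 53.3 CPM after insulin (adjusted p = 4.7e-07, log2 ratio 0.99 ± 0.09 SE). Of 44 genes of the unfolded protein response 22 rose and 0 fell (0 by edgeR at an unadjusted p under 0.05, 0 by DESeq2, 0 by limma voom), and 19 rose without insulin replicate 1. In this list 50.0% were called, against 28.6% over all genes tested. Among genes of prolyl hydroxylases that prepare collagen for folding, p4ha1b rose from 7.48 ± 0.612 to 16.7 ± 4.32 CPM, and p4ha2 rose from 9.17 ± 0.595 to 17.9 ± 2.27 CPM. At 0.5 hpi p4ha2 stood at 19.2 CPM after PBS and 13.8 CPM after insulin, so PBS at 4 hpi was its low group. Collagen and skeletal genes did not move as a list, with 8 higher and 6 lower of 79 (17.7% called).

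In the cytosol, hsp90aa1.2, an HSP90 gene, held 37.0, 43.7, 37.2 and 44.9 CPM after PBS and 206, 92.7, 103 and 111 CPM after insulin (adjusted p = 0.000197, log2 ratio 1.65 ± 0.24 SE). The heat shock and cytosolic chaperone list had 16 higher and 5 lower of 46, 10 higher without insulin replicate 1. Called genes made up 45.7% of that list, against 28.6% over all genes tested. hsp90b1, the HSP90 of the endoplasmic reticulum, held 129.8, 129, 124 and 122 CPM after PBS and 458, 198, 192 and 233 CPM after insulin (adjusted p = 0.00165, log2 ratio 1.1 ± 0.22 SE). In each of hspa5, hsp90aa1.2 and hsp90b1, insulin replicate 1 was the highest library at 4 hpi by a wide margin and the other 3 insulin libraries also exceeded every PBS library of that time. At 0.5 hpi the levels after PBS and insulin were 264.8 and 217.5 CPM for hspa5, 79.4 and 49.6 CPM for hsp90aa1.2, and 196.6 and 201.4 CPM for hsp90b1. PBS at 4 hpi was thus the low group for each. For hsp90b1, insulin replicates 2 to 4 at 4 hpi lay within the early PBS range of 154.4 to 246.8 CPM. The heat shock transcription factor genes hsf1 and hsf2 went the other way: hsf1 fell from 34.7 ± 1.07 to 21.0 ± 3.85 CPM, and hsf2 fell from 60.7 ± 1.65 to 29.2 ± 5.64 CPM. nupr1, a small chromatin protein of the stress response, held 41.5, 38.1, 39.5 and 29.0 CPM after PBS and 114, 116, 107 and 105 CPM after insulin (adjusted p = 5.3e-08, log2 ratio 1.58 ± 0.12 SE).

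Several RNA-binding and splicing genes rose tightly in all insulin libraries. clk4a, a kinase that phosphorylates SR splicing factors, held 68.6, 56.9, 57.4 and 63.8 CPM after PBS and 248, 221, 217 and 213 CPM after insulin (adjusted p = 6.39e-10, log2 ratio 1.87 ± 0.11 SE). rbm4.2, an RNA-binding regulator of alternative splicing, held 27.7, 22.5, 22.3 and 28.8 CPM after PBS and 82.3, 83.4, 78.3 and 79.2 CPM after insulin (adjusted p = 1.73e-08, log2 ratio 1.68 ± 0.12 SE). safb, a scaffold-attachment protein that binds RNA, held 67.0, 68.6, 73.7 and 80.2 CPM after PBS and 190.4, 179.7, 172 and 182 CPM after insulin (adjusted p = 7.87e-09, log2 ratio 1.32 ± 0.09 SE). The groups did not overlap in any of these genes. Of 117 spliceosome and SR protein genes 41 rose and 1 fell, and the summed level went from 8138 to 8719 CPM to 10210.0 to 10950.0 CPM. The share called was 35.9%, against 28.6% over all genes tested. The median log2 change of the list was 0.22 at 4 hpi and 0.18 at 0.5 hpi, and 10 of its genes differed between times. Leaving out 1 library at a time left 30 to 42 higher. Further members were rbm5, a splicing regulator of apoptosis genes, which rose from 16.5 ± 2.46 to 51.8 ± 7.87 CPM, the splice-site choice factor tial1, which rose from 55.5 ± 1.46 to 120.5 ± 7.90 CPM, hnrnpm, from 156 to 270.1 CPM, and the SR protein gene srsf1b, from 83.2 to 136 CPM. Early levels, at 0.5 hpi after PBS and insulin, were 51.0 and 45.7 CPM for rbm4.2 and 112.7 and 112.4 CPM for safb. They were 88.1 and 99.2 CPM for tial1, 202.9 and 226.2 CPM for hnrnpm, and 98.85 and 93.5 CPM for srsf1b. For each of these genes PBS at 4 hpi was thus the low group and insulin at 4 hpi the high group. The counts are per gene, so transcript isoforms were not resolved.

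Genes of cell division rose. Of 62 mitosis genes 34 were higher and 1 lower, with a median log2 change of 0.47. Among them 56.5% were called, against 28.6% over all genes tested. The summed level was 1063 to 1150.0 CPM after PBS and 1408 to 1622 CPM after insulin. aspm, a spindle pole protein, held 23.7, 21.1, 23.4 and 24.6 CPM after PBS and 54.4, 54.0, 62.1 and 60.9 CPM after insulin (adjusted p = 1.8e-07, log2 ratio 1.32 ± 0.11 SE). plk1, the polo kinase of mitotic entry, held 22.5, 22.3, 26.1 and 28.0 CPM after PBS and 49.5, 47.9, 42.0 and 49.0 CPM after insulin (adjusted p = 3.62e-05, log2 ratio 0.93 ± 0.13 SE). Neither overlapped between groups. cdc20, an activator of the anaphase-promoting complex, rose from 9.46 ± 0.622 to 23.5 ± 4.92 CPM, and the cyclin gene ccnb1 rose from 14.2 ± 3.15 to 31.2 ± 4.09 CPM. At 0.5 hpi the level of aspm was 43.2 CPM after PBS and 47.3 CPM after insulin, both between the levels of PBS and insulin at 4 hpi. The early levels were 39.8 and 45.0 CPM for plk1, 16.6 and 19.6 CPM for cdc20, and 25.5 and 31.2 CPM for ccnb1. PBS at 4 hpi was thus the low group for each of these genes. For plk1 and ccnb1, insulin at 4 hpi lay near the early insulin level. The replication list was less one-sided, with 11 higher and 8 lower of 65, a share called of 29.2% against 28.6% over all genes tested. Among the E2F factors of the cell cycle, the activator gene E2F3 rose from 11.2 to 21.6 CPM and the repressor gene e2f7 fell from 11.6 to 6.66 CPM. Without PBS replicate 2 or insulin replicate 1, 7 replication genes were higher, and without PBS replicate 1, 4 were lower, against 5 without PBS replicate 2 or without insulin replicate 2 or 3.

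Ribosome, respiration and proteasome genes were higher in number called, and here the counts depended on which libraries entered. Of 82 cytosolic ribosomal protein genes 40 rose and 0 fell (0 by edgeR at an unadjusted p under 0.05, 0 by DESeq2, 0 by limma voom). Called genes made up 48.8% of the list, against 28.6% over all genes tested. rplp0, a protein of the ribosomal stalk, held 1292, 1565, 1651 and 1549 CPM after PBS and 2274, 2046, 1827 and 2279 CPM after insulin (adjusted p = 0.00923, log2 ratio 0.48 ± 0.13 SE). At 0.5 hpi rplp0 stood at 1948 CPM after PBS and 1917 CPM after insulin, so PBS at 4 hpi was its low group. The median log2 change of the list was 0.40, and 0.26 without insulin replicate 1, when 7 genes rose; 5, 9, 19 and 14 rose without PBS replicates 1 to 4, and 72 and 6 without insulin replicates 3 and 4. The summed level reached 42550.0 to 47340.0 CPM in PBS libraries and 47570.0 to 75360.0 CPM in insulin libraries, highest in replicate 1. With insulin replicate 1 and the 3 libraries at 0.5 hpi that stand apart with it left out, 45 rose. ubtf, the factor of ribosomal RNA transcription, fell, from 284 ± 9.01 to 160.5 ± 12.4 CPM (adjusted p = 6.65e-06, log2 ratio -0.82 ± 0.10 SE).

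Of 90 nuclear genes of the respiratory chain 57 rose and 1 fell (64.4% called, against 28.6% over all genes tested). This was the highest share among the lists of rising genes in the bar plot of gene lists. The count was 26 without insulin replicate 1, 36 without PBS replicate 1 and 61 without the 4 libraries that stand apart. ndufb8, a subunit of complex I, held 88.2, 93.4, 92.9 and 101 CPM after PBS and 179, 118, 115 and 145 CPM after insulin (adjusted p = 0.00195, log2 ratio 0.57 ± 0.12 SE). At 0.5 hpi ndufb8 stood at 124.8 CPM after PBS and 117 CPM after insulin. PBS at 4 hpi was thus its low group, and insulin replicates 2 and 3 at 4 hpi lay near the early levels. The gene sdhb of complex II rose from 126 ± 13.5 to 179.9 ± 22.3 CPM. The 13 protein genes of the mitochondrial genome did not follow: 1 rose, mt-nd3, from 249.5 ± 7.24 to 355 ± 91.8 CPM (adjusted p = 0.029), and it missed the threshold without any 1 of 6 libraries, PBS replicates 1 to 4 and insulin replicates 1 and 4 (adjusted p from 0.0504 to 0.103). Of 49 proteasome genes 23 rose and 0 fell (0 by edgeR at an unadjusted p under 0.05, 0 by DESeq2, 0 by limma voom), with 46.9% called. psmd14, a deubiquitinase of the lid, rose from 32.4 ± 2.2 to 46.5 ± 7.94 CPM. Without insulin replicate 1 or 4, 4 and 9 proteasome genes rose, and without PBS replicates 1 to 4, 8, 6, 13 and 11.

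**Figure D4:**
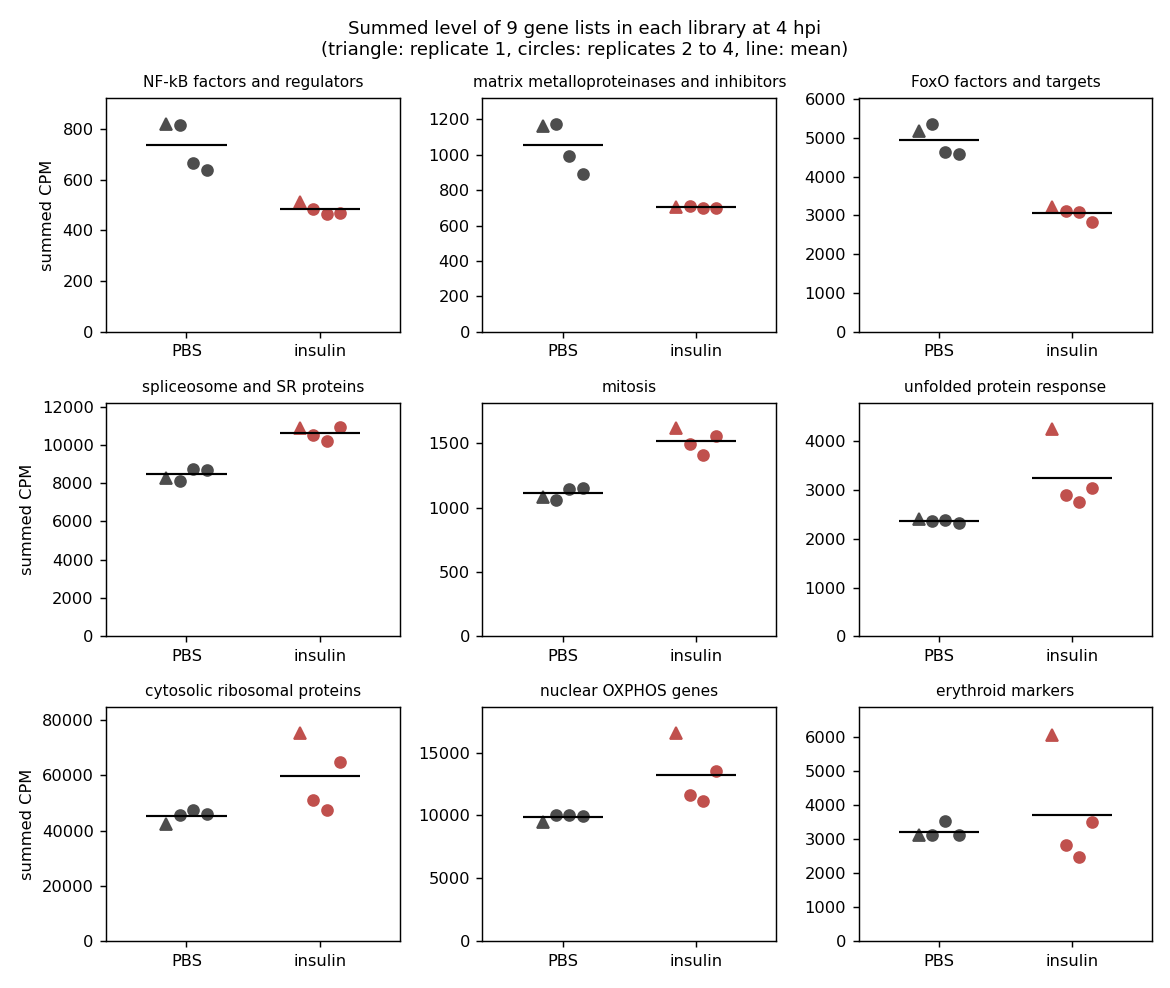
Each point is the CPM summed over the tested genes of a list in 1 library at 4 hpi, with a triangle for replicate 1, circles for replicates 2 to 4 and a line at the group mean; axes start at 0. PBS and insulin libraries are apart for NF-kB genes, matrix metalloproteinases, FoxO targets, splicing, mitosis and the unfolded protein response, insulin replicate 1 is the highest library for ribosomal, respiratory and erythroid genes, and the erythroid sums of the groups overlap.

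Markers of the exocrine pancreas were higher. Of 33 exocrine pancreas markers 14 rose and 1 fell, with a median log2 change of 0.92. Called genes made up 45.5% of the list, against 28.6% over all genes tested. The summed level was 2202 to 3205 CPM after PBS and 4318 to 6726 CPM after insulin. cpa1, carboxypeptidase A1, held 13.4, 12.6, 17.6 and 15.6 CPM after PBS and 33.9, 32.7, 36.9 and 25.5 CPM after insulin (adjusted p = 0.0169, log2 ratio 1.12 ± 0.32 SE). ctrl, a chymotrypsin-like protease, held 91.4, 90.2, 127 and 125 CPM after PBS and 175, 252, 301 and 194 CPM after insulin (adjusted p = 0.0234, log2 ratio 1.09 ± 0.33 SE). The groups were apart in both, and the gene zgc:66382 rose from 269 ± 42.2 to 599 ± 92.5 CPM. Trypsin, gene try, held 249, 307, 409 and 356 CPM after PBS and 572, 705, 788 and 635 CPM after insulin without overlap and missed the threshold (adjusted p = 0.0507, log2 ratio 1.03 ± 0.37 SE), which it passed in 8 of 21 alternative settings. The number called depended on single libraries: 1, 1, 8 and 4 rose without PBS replicates 1 to 4, and 9, 5 and 1 without insulin replicates 1 to 3. cpa1 missed the threshold without PBS replicate 1 or 2 (adjusted p = 0.05 and 0.0521), and ctrl and zgc:66382 missed it without either of these or without insulin replicate 3 (adjusted p from 0.0592 to 0.0706). Protease genes of the pancreas are close paralogs, and how shared reads were counted is not given in the sources used here.

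In the intestine 13 of 42 markers rose and 0 fell (1 by edgeR at an unadjusted p under 0.05, 0 by DESeq2, 0 by limma voom), 8 of them without insulin replicate 1. The share called was 31.0%, near the 28.6% over all genes tested (14% higher and 14.6% lower). anpepb, an aminopeptidase of the brush border, held 101, 102, 89.0 and 91.7 CPM after PBS and 222, 181, 198 and 176 CPM after insulin (adjusted p = 4.99e-06, log2 ratio 1.02 ± 0.12 SE). slc15a1b, the intestinal peptide transporter, rose from 12 ± 2.07 to 25.4 ± 7.15 CPM (adjusted p = 0.0178, log2 ratio 1.08 ± 0.31 SE), and missed the threshold without PBS replicate 1 (adjusted p = 0.0570) or insulin replicate 1 (0.0584). The liver list had 7 higher and 3 lower of 57, and its summed level overlapped, at 18920.0 to 21380.0 CPM after PBS and 18910.0 to 29200.0 CPM after insulin. Of that list 17.5% were called, against 28.6% of all genes tested. Without insulin replicate 1 the liver list had 4 higher and 7 lower, and 4 were higher without PBS replicate 1, 2 or 3. rbp4, the retinol carrier of plasma, rose from 542 ± 55.5 to 819.8 ± 191 CPM, and cyp2y3, a cytochrome P450 of zebrafish, rose from 74.2 ± 1.02 to 138 ± 18.8 CPM. hnf4a, a transcription factor of liver and gut, rose from 11.9 ± 0.976 to 22.2 ± 2.99 CPM. Conjugation and xenobiotic genes rose in 31 of 73 cases and fell in 8 (53.4% called, against 28.6% over all genes tested). ugt5d1, a glucuronosyltransferase, held 4.25, 3.06, 2.2 and 1.90 CPM after PBS and 15.6, 12.6, 12.9 and 10.3 CPM after insulin (adjusted p = 0.000102, log2 ratio 2.18 ± 0.32 SE). The glutathione transferase gene gstp1 rose from 236 ± 19.4 to 394 ± 74.9 CPM.

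Several genes of cell adhesion in skin fell, a set of single genes and not a list. itgb4, the integrin of hemidesmosomes, held 225, 225, 209.8 and 229 CPM after PBS and 57.4, 99.7, 95.5 and 63.8 CPM after insulin (adjusted p = 9.03e-06, log2 ratio -1.49 ± 0.17 SE). Its partner itga6b fell from 169 ± 13.4 to 71.9 ± 9.90 CPM, the desmosome gene dspa fell from 275 ± 27.8 to 141 ± 17.6 CPM, and epcam, an epithelial adhesion molecule, fell from 451 ± 54.4 to 234 ± 31.9 CPM. cldnb, a tight junction claudin of the epidermis, held 350.0, 352, 236 and 219 CPM after PBS and 114, 68.7, 61.4 and 58.4 CPM after insulin (adjusted p = 7.65e-05, log2 ratio -1.93 ± 0.26 SE). The PBS libraries were again a high and a low pair, both above the insulin libraries. Of 69 skin and ionocyte markers 18 fell and 8 rose, with a median log2 change of -0.08. Called genes made up 37.7% of the list, against 28.6% over all genes tested. Summed levels overlapped, at 22780.0 to 24190.0 CPM after PBS and 19310.0 to 27560.0 CPM after insulin. The counts higher were 5, 5, 3 and 5 without PBS replicate 2, 3 or 4 or insulin replicate 1. Among the risers was ponzr4, a gene of the plac8-related ponzr family, with 1.2, 0.510, 2.42 and 0.833 CPM after PBS and 4.16, 14.9, 8.93 and 6.95 CPM after insulin.

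Muscle genes moved in both directions. Of 86 tested, 13 rose and 15 fell, so 32.6% were called, near the 28.6% over all genes tested. actc1b, a sarcomeric actin, held 9337, 12450.0, 13150.0 and 11390.0 CPM after PBS and 19500.0, 17590.0, 15620.0 and 18530.0 CPM after insulin (adjusted p = 0.00495, log2 ratio 0.62 ± 0.15 SE), and pvalb2, parvalbumin, rose from 4178 ± 152 to 6758 ± 1647 CPM. The other way went neb, the giant nebulin of the thin filament, which fell from 803 ± 53.1 to 482 ± 141 CPM, and myhz2, a fast myosin heavy chain, which fell from 7390.0 ± 436 to 5166 ± 741 CPM. The number higher was 7, 8, 7 and 20 without PBS replicate 1 or 2, insulin replicate 1 or insulin replicate 3, and 9 muscle genes were lower without insulin replicate 4.

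In the eye, 8 of 74 photoreceptor genes rose and 7 fell (20.3% called, against 28.6% over all genes tested), and 13 rose without insulin replicate 1. Without the 4 libraries that stand apart, 30 rose and 7 fell. lrata, which makes the retinyl esters of the visual cycle, held 0.532, 0.917, 0.550 and 0.952 CPM after PBS and 12.2, 4.33, 4.0 and 4.79 CPM after insulin (adjusted p = 0.000135, log2 ratio 3.06 ± 0.47 SE), on 4 to 9 reads per PBS library. The blue cone opsin gene opn1sw2 stood at 276 ± 32.1 CPM after PBS and 417 ± 64.6 CPM after insulin. For the green cone opsin gene opn1mw1 these levels were 499 ± 65.4 and 742 ± 137 CPM. At 0.5 hpi opn1sw2 had 432 CPM after PBS and 403 CPM after insulin, and opn1mw1 683 and 669 CPM. PBS at 4 hpi was thus the low group for both genes. In both opsins insulin replicate 1 was the lowest insulin library, and for opn1mw1 it lay within the PBS range. Of 54 lens crystallins tested, 0 rose and 0 fell by edgeR, while at an unadjusted p under 0.05 it gave 0 higher and 0 lower, DESeq2 called 0 higher and 0 lower, and limma voom 0 and 0. Without the 4 libraries that stand apart, 5 lens genes were higher and 0 lower. The erythroid list, a sign of blood content, had 1 higher and 4 lower of 29 (17.2% called, below the 28.6% over all genes tested). Its sums were 3107 to 3516 CPM after PBS and 2453 to 6057 CPM after insulin. Without PBS replicate 1 or 4 or insulin replicate 4, 2 erythroid genes were lower.

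The late effect differed from the early one for many genes. The difference between the insulin effects at 4 and 0.5 hpi passed for 2076 genes (9.59% of those tested), 830 with a more positive effect at 4 hpi and 1246 with a more negative one. Of the 6193 genes called at 4 hpi, 1850 (29.9%) were among them, while 84 genes were called at 0.5 hpi. PBS replicates 2 and 3 at 0.5 hpi differed from each other at 0.399% of genes, far less than any other pair of a group, and summing them as 1 library gave 1563 genes. The more positive differences with the smallest p-values were in nupr1 (log2 difference 1.93, adjusted p = 1.01e-06), rbm4.2 (1.83), clk4a (1.78), safb (1.33) and eif2ak3 (1.39). For eif2ak3 the early levels were 39.6 ± 2.26 CPM after PBS and 29.9 ± 2.24 CPM after insulin. The direction at 0.5 hpi was thus the opposite of that at 4 hpi, although the early effect missed the threshold (adjusted p = 0.0585). On the negative side lonrf1l, a gene of the LONRF ring-finger protease family, held 212, 219.6, 218 and 240.3 CPM after PBS and 39.4, 36.1, 31.6 and 37.7 CPM after insulin at 4 hpi, and the difference between times was -2.98 (adjusted p = 1.26e-09). mcoln1a, the lysosomal calcium channel, had -1.80, and the cryptochrome gene cry1b -2.53.

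Levels at all 4 points show which group stood out. mmp13a had 16.6 ± 1.39 CPM in PBS and 10.9 ± 3.78 CPM in insulin at 0.5 hpi, then 144 ± 45.7 and 17.8 ± 2.50 CPM at 4 hpi, so PBS at 4 hpi was the high group. lpin1 had 53.3 ± 12.7 and 55.2 ± 11.3 CPM at 0.5 hpi, then 112 ± 11.7 and 25.1 ± 6.74 CPM, with PBS at 4 hpi above and insulin at 4 hpi below the early levels. gck had 3.70 ± 0.713 and 2.69 ± 1.53 CPM at 0.5 hpi, then 5.82 ± 2.82 and 22.5 ± 5.21 CPM, with insulin at 4 hpi as the high group. serpinh1b had 38.6 ± 8.70 and 26.3 ± 4.59 CPM at 0.5 hpi, then 12.8 ± 1.49 and 123 ± 50.5 CPM, the lowest and the highest level of the 4 groups. pck1 was lower after insulin at both times, at 554 ± 111 against 267 ± 24.8 CPM early and 692 ± 86.5 against 397 ± 62.9 CPM late, and its difference between times did not pass (0.25, adjusted p = 0.459).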

How the data were processed

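RNA sequencing of whole zebrafish embryos gave 1 table per library with a chromosome, symbol, gene ID and whole-number read count for 31452 genes. The authors deposited raw counts, per the file headers; the reads were handled on the Zv9 build, per the submitters' processing notes, with aligner, counting tool and strand setting not given in the sources used here, so overlapping, antisense and near-identical genes may share reads. filterByExpr left 21650 genes. One edgeR quasi-likelihood model (robust, TMM factors, R 4.3.3, edgeR 4.0.16) was fitted to all 16 libraries with 4 groups and 12 residual degrees of freedom. Every adjusted p is edgeR's Benjamini-Hochberg value over all genes tested, two-sided. A gene was called at an adjusted p under 0.05. Levels are CPM over TMM-scaled totals, given as mean ± SD of n = 4 libraries, in replicate order where listed, and are compared within a gene only. ptpn6 was also compared by an exact permutation test (scipy 1.17.1). The difference between times is an interaction contrast of the same fit. On simulated counts for the 4 hpi comparison, 16.7%, 73.1% and 97.0% of genes changed by a log2 of 0.5, 1 and 2 were called, with 2 false calls among 21449 genes tested. Only 66 or 67 genes were changed per size, far fewer than the 6193 called in the data, so these shares do not carry over to the data.

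The comparison, members and 54 gene lists were chosen with earlier results of these data known; 2101 of 2246 written symbols (93.5%) matched. Lists are described by counts and medians, without a set test. Genes were named by rule among called genes with a symbol and at least 1 log2 CPM: the 10 largest changes and 10 smallest p in each direction, the 8 most abundant past 1.5-fold, the 4 smallest p of each list, the 5 smallest p per direction of the difference between times, and ptpn6; part of these are printed, and 1 named gene is not reported here. Chosen after their values were seen were atf3, ccnb1, cldnb, cyp8b1, egln3, epcam, fkbp5, gstp1, hif1aa, hnrnpm, hsf1, hsp90aa1.2, hsp90b1, inpp5d, ins, insrb, lyz, mpeg1, mpx, myhz2, nr3c1, opn1mw1, p4ha1b, p4ha2, ptpn2b, slc15a1b, socs3a, srsf1b, try, txnipa and wdr90. Alternatives were DESeq2 (1.42.0) size factors and Wald test, library totals, limma voom (3.58.1), other count filters, only the 4 hpi libraries, a replicate block, a term for or removal of the 4 libraries that nearly lack wdr90, a near-identical PBS pair summed, within-lane fits and leaving out each library. No promoter, protein or genome sequence was used here.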

Additional observations from a re-analysis of the deposited data

Results flagged for a closer look

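The insulin effect at 4 hpi differed from that at 0.5 hpi by the test of the difference itself (edgeR, adjusted p under 0.05) for 81 of the 129 genes reported. Over all genes tested the share was 9.59%. Most reported genes were named for their change at 4 hpi and some for this difference, so a higher share among them was built in. Each value below is the log2 change at 4 hpi minus that at 0.5 hpi. The most negative differences were irg1l -4.35, plek2 -3.56, cxcl-c1c -3.26, lonrf1l -2.98, il1b -2.59, cry1b -2.53, fosl1a -2.47, ptgs2b -2.45, mmp13a -2.41, acsl4l -2.38, lpin1 -2.2, atf3 -2.19, irf1b -2.04, dusp5 -1.93, abca1a -1.91, slc16a6b -1.89 and mcoln1a -1.80. Smaller negative differences were found for fbxo32 -1.74, odc1 -1.73, mmp9 -1.66, tefa -1.64, hsd17b12a -1.61, hsf2 -1.52, elovl1a -1.44, dbpa -1.44, pfkfb4l -1.38, pfkfb3 -1.30, srebf1 -1.29, trib1 -1.25, ubtf -1.21, ncf1 -1.2, ppargc1b -1.08, clock -1.05 and hsf1 -1.04. The remaining negative ones were itgb4 -1.0, foxo1a -1.0, sgk1 -0.93, nfkbiaa -0.93, tgfb1a -0.92, h1f0 -0.91, hif1aa -0.91, itga6b -0.89, e2f7 -0.86, slc7a3a -0.85, arrdc3a -0.83, ldlr -0.82, pparda -0.66 and dspa -0.54. Positive differences of over 1 were found for serpinh1b 3.82, egln3 3.14, ponzr4 3.07, lrata 2.69, gck 2.41, hsp90aa1.2 2.33, ugt5d1 2.0, nupr1 1.93, rbm4.2 1.83, clk4a 1.78, ptpn6 1.73, p4ha1b 1.62, slc15a1b 1.58, p4ha2 1.43, eif2ak3 1.39, safb 1.33, hspa5 1.28, aspm 1.19, rbm5 1.09, cdc20 1.08, hsp90b1 1.06, E2F3 1.01 and cyp2y3 1.01. The smaller positive ones were anpepb 0.96, tial1 0.95, hnf4a 0.94, ccnb1 0.84, srsf1b 0.79, plk1 0.75, opn1sw2 0.70, ndufb8 0.66, hnrnpm 0.64 and eif4ebp1 0.47. The value of ptpn6 is that of ENSDARG00000013916.

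A library lay far from the other 3 of its group for 10 of the 258 groups of 4 libraries examined (3.88%); by chance alone this happens in about 1 of 20. In 9 of the 10 it was insulin replicate 1. It was the highest at 458 CPM for hsp90b1, 487 CPM for hspa5, 199 CPM for serpinh1b, 206 CPM for hsp90aa1.2, 12.2 CPM for lrata, 36.3 CPM for lyz, 478 CPM for glula and 3.22 CPM for trib1, and the lowest at 320.0 CPM for opn1sw2. The other was the lowest PBS library for hsf1, PBS replicate 4 at 33.1 CPM. The remaining PBS libraries were nearly equal there, at 35.1 to 35.3 CPM, so this gap was small in size.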

How the results depend on the processing

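Of the 21 alternative settings, 19 kept the number of genes called at 4 hpi within 1.5 times of 6193, between 4517 without PBS replicate 2 and 7746 in the 12 libraries without those that nearly lack wdr90; leaving out 1 library gave 4517 to 6015. The lane 5 libraries alone called 2952 (1242 higher and 1710 lower), on 5 libraries. Fitting the libraries whose headers name no lane, 1 against 1 at 4 hpi, called 1 (1 higher and 0 lower), with 1885 at an unadjusted p under 0.05 by edgeR, and the lone library of each group is assumed there to vary like the others. In that fit the log2 changes of the ptpn6 IDs were 1.59 (adjusted p = 0.485) and 0.55 (adjusted p = 0.886); in all other settings that tested them both passed, between 1.48 and 1.64 for the first and 0.96 and 1.40 for the second. The difference between times gave 1455 to 1919 genes when 1 library was left out, 1563 with the near-identical PBS pair summed, and 3448 with a term for the libraries that stand apart.

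Of the 122 reported genes that were called, 109 kept their call in every setting but the no-lane fit, where 121 lost it, and none changed direction. The same replicate numbers did not pair the libraries at 4 hpi, with correlations of same-numbered deviations from -0.038 to 0.048, and a replicate block called 5585 genes, 2583 higher and 3002 lower, and 1666 for the difference between times. Of 1134 list medians recomputed, 1055 moved by less than the spread between libraries and 52 changed sign, in lists with medians between -0.24 and 0.28, such as intestine markers, from 0.28 to -0.03 in the no-lane fit, and pattern recognition, from -0.24 to 0.07 with a filter of 10 CPM. In simulated counts with 66 or 67 changed genes per size, 16.7% of changes of a log2 of 0.5 were called. The data hold far more called genes, 6193, so their adjusted threshold is less strict and the simulated share does not carry over.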

Other observations

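Oxygen-sensing genes moved in both directions at 4 hpi. Of 41 tested hypoxia genes, 6 were higher and 10 lower (39.0% called, against 28.6% over all genes tested). egln3, a prolyl hydroxylase that marks HIF proteins for destruction, held 4.25, 3.36, 3.41 and 2.14 CPM after PBS and 4.69, 20.6, 11.6 and 12.1 CPM after insulin (adjusted p = 0.00132, log2 ratio 1.90 ± 0.37 SE), with insulin replicate 1 close to the PBS libraries. hif1aa, a HIF-1 alpha gene, fell from 16.6 ± 1.58 to 9.26 ± 1.2 CPM.

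Linker histone genes were among the abundant transcripts that fell. histh1l held 2161, 2169, 1902 and 1825 CPM after PBS and 204, 528, 475 and 402 CPM after insulin (adjusted p = 0.000155, log2 ratio -2.32 ± 0.33 SE), and h1f0, the histone H1 of resting cells, fell from 952 ± 84.7 to 358 ± 44.7 CPM. Lysosome and autophagy genes as a list had 4 higher and 9 lower of 71, 2 higher without PBS replicate 1. Their called share of 18.3% was below the 28.6% over all genes tested. Among them mcoln1a fell from 73.2 ± 5.96 to 26.4 ± 3.33 CPM, and sqstm1, the autophagy receptor p62, fell from 131 ± 14.5 to 66.6 ± 20.1 CPM.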
